A study of Mus musculus with 30 samples.

Results

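The cytosolic ribosomal proteins build the ribosomes that translate nuclear messenger RNAs. They were taken from the deposited expression table by symbol, as every row named Rpl or Rps followed by digits and optionally an a or x, together with Rplp0, Rplp1, Rplp2 and Rpsa. This gave 76 of 55357 rows, 46 of the large subunit (Rpl and Rplp) and 30 of the small subunit (Rps and Rpsa). The symbol rule left out Rps3a1 and Fau, which also encode ribosomal proteins, and the 320 pseudogene rows named after a member. All 76 members reached at least 1 TPM (a length-corrected share of the transcripts in a library) in each of the 30 libraries, and all passed the filter on low values in every comparison.

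Polyadenylated RNA of C57BL/6N mice was sequenced in 3 tissues: brown fat (BAT), liver, and sWAT, which commonly stands for subcutaneous white fat. In each tissue 5 libraries were labelled HFD, commonly a high-fat diet, and 5 were from mice that also had imeglimin, a drug against type 2 diabetes (HFD+Ime below). All groups therefore share the diet, and no group on another diet was analysed here. The sources used here give no age or dose and do not say whether each library is a separate animal, so p-values measure the spread between libraries, which may be partly technical.

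TPM keeps no record of depth, so the depth behind each value is unknown. Brown adipocyte markers summed to between 7265 and 9590 TPM in HFD BAT, hepatocyte markers to between 84482 and 101736 TPM in HFD liver and white adipocyte markers to between 21131 and 22618 TPM in HFD sWAT, each sum far above its level in the other tissues. Of the brown adipocyte markers, Ucp1, Cidea, Cox7a1 and Dio2 were lower in HFD liver than in HFD BAT. Elovl3 was higher there by 3.72 (log2), and Ppara was nearly level at 0.09. Library 88 of sWAT HFD+Ime stood apart. Its B cell genes Cd79a, Cd79b and Ms4a1 stood at 589, 381 and 72.6 TPM, against at most 2.89 TPM for any of them in the other 9 sWAT libraries, and its hepatocyte gene Alb stood at 6876 TPM against at most 354. The imeglimin comparisons that use sWAT are therefore given with and without that library. In BAT, the 6 skeletal muscle markers summed to between 66.9 and 4416 TPM with HFD and to between 5.06 and 3842 TPM with HFD+Ime, the highest library of each group being replicates 79 and 94.

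Each ribosome holds a single copy of most of these proteins, and cells make them in near-equal numbers. In mammals most of their messenger RNAs start with a C followed by a run of pyrimidines, the terminal oligopyrimidine (TOP) motif, through which the kinase complex mTORC1 and the RNA-binding protein LARP1 control their translation. Lymphocytes and other growing cells are known for high ribosomal protein RNA.

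RefSeq start sites (build GRCm38.p6) could be matched to 56 of the 76 members by symbol, with 66 windows in all, of 300 bases each. The sequences below run from 30 bases before the start site to base 15 of the transcript, 5′ to 3′. Rpl35a has 3 annotated starts, of which 1 is shown. The sequences are for members whose share in the set differed most between tissues or whose imeglimin difference in BAT was among the largest. Capitals mark a run of at least 5 C or T that covers the start base.
Rplp2 (chr7:141447621-141447665, plus strand): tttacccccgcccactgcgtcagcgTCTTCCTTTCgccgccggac
Rps27 (chr3:90213634-90213678, minus strand): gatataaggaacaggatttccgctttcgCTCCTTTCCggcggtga
Rpl27a (chr7:109519165-109519209, plus strand): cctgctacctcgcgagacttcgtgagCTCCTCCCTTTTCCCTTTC
Rpl35a (chr16:33056452-33056496, plus strand): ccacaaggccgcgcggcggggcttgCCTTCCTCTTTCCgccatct
Rps18 (chr17:33955651-33955695, minus strand): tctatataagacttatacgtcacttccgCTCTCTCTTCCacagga
Rpl7a (chr2:26910777-26910821, plus strand): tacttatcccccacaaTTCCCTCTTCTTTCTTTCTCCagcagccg
Rps28 (chr17:33824548-33824592, minus strand): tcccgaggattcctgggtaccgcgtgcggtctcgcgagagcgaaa
Rpl10 (chrX:74270786-74270830, plus strand): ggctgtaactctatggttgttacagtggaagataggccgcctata
Rpl4 (chr9:64173357-64173401, plus strand): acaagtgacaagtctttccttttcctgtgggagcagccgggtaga
Rps2 (chr17:24720033-24720077, plus strand): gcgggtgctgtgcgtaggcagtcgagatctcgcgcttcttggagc
Rps12 (chr10:23787195-23787239, minus strand): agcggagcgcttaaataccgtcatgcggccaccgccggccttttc
Rpl13a (chr7:45128731-45128775, minus strand): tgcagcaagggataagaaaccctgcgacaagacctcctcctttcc
In this set Rplp2, Rps27, Rpl27a, Rpl35a, Rps18 and Rpl7a carry such a run, whereas Rps28, Rpl10, Rpl4, Rps2, Rps12 and Rpl13a do not at the annotated start base. A run was found in 20 of 56 members (35.7%), against 11.8% of 27025 genes with a window. Within the 300 bases, CCGGAAG on either strand, the core bound by ETS family factors such as GABPA, was found in 41.1% of members against 9.93% of genes. AAGATGGC on either strand, the core bound by YY1, was found in 8.93% against 3.19%. TATAAA on either strand was found in 10.7% against 15.7%. CCGGAAG and AAGATGGC can share the letters AAG where they abut, and each was counted on its own. A match is a description of letters, and an annotated start that is off by a few bases moves the run out of the counted position.

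Summed over the 76 members, HFD BAT devoted 1.02% ± 0.063 of all TPM to ribosomal proteins, HFD liver 1.53% ± 0.064 and HFD sWAT 2.96% ± 0.167 (mean ± SD, n = 5 each). The 5 HFD libraries gave 0.970, 1.02, 1.11, 1.05 and 0.958% in BAT, 1.57, 1.49, 1.63, 1.505 and 1.48% in liver, and 2.79, 3.15, 2.77, 3.04 and 3.04% in sWAT. The 3 tissues did not overlap. This order depends on what else fills the library. Mitochondrially encoded transcripts and their nuclear near-copies held 65.4% ± 1.84 of TPM in HFD BAT, 21.0% ± 0.459 in HFD liver and 20.5% ± 2.21 in HFD sWAT. Of the TPM outside them, ribosomal proteins held 2.95% ± 0.048 in BAT, 1.94% ± 0.073 in liver and 3.72% ± 0.151 in sWAT. On that scale liver, not BAT, was lowest, and again no library of one tissue overlapped another. That scale leaves out both kinds of row. The mitochondrially encoded genes alone held 38.6% ± 1.59 in HFD BAT, 12.8% ± 0.154 in liver and 13.3% ± 1.51 in sWAT. The near-copies held 26.8% ± 0.822, 8.18% ± 0.322 and 7.12% ± 0.725. The order with only the mitochondrially encoded genes left out was not computed, so the change of order is not assigned to them alone. In bulk tissue, fewer cells of a type and less RNA per cell cannot be told apart.

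**Figure D1:**
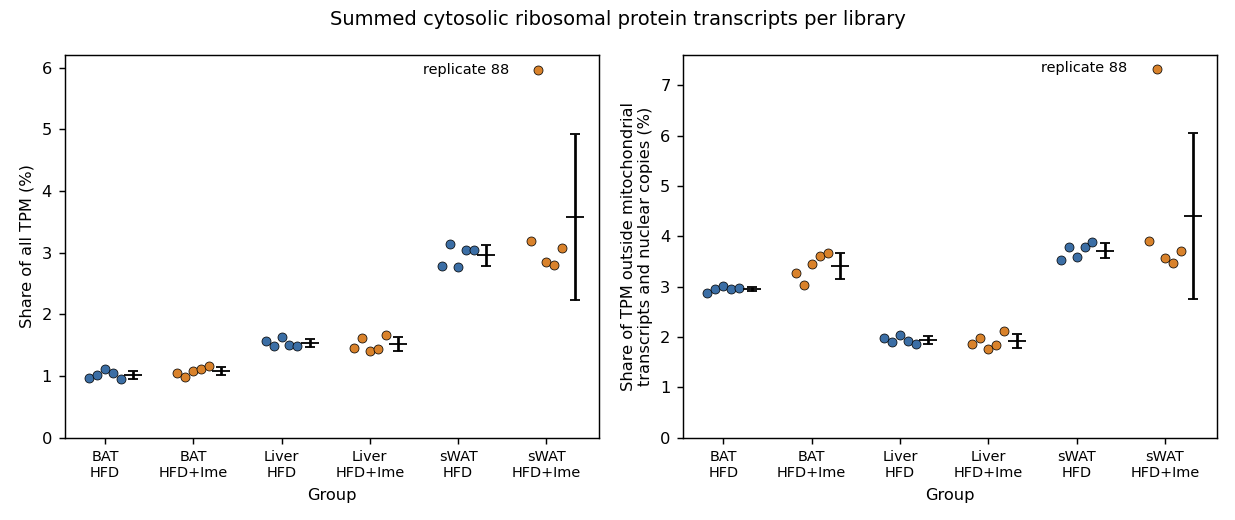
Summed TPM of the 76 ribosomal protein genes in each library (points), as a percentage of all TPM on the left and of the TPM outside mitochondrial transcripts and their nuclear copies on the right, with the group mean and SD (n = 5) beside the points. sWAT HFD+Ime replicate 88 stands at 5.96% and 7.33%, and BAT HFD+Ime lies above BAT HFD on the right, where the groups do not overlap.

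In TPM of single members, in liver against BAT, 70 members were higher and 1 lower at an adjusted p under 0.05 (limma on log2(TPM + 1), adjusted over all genes tested), where 44.4% of all genes tested were higher and 30.2% lower. The median difference of the members was 0.68 (log2), that of all genes 0.16. In sWAT against BAT all 76 were higher, where 83.7% of all genes were higher, with medians of 1.65 for members and 1.26 for all genes. In liver against sWAT 75 were lower, where 76.1% of all genes were lower, with medians of -0.96 and -1.03. Without mitochondrial transcripts and copies, 73 members were lower and 1, Rpl10, higher in liver than in BAT, with a median of -0.50, where 70.1% of all genes were lower and 17.2% higher. With median-ratio scaling 52 were higher and 4 lower in liver than in sWAT, with a median of 0.26, where 40.7% of all genes were higher and 39.8% lower. In sWAT against BAT 66 were higher and 1 lower without mitochondrial transcripts and copies, where 50.7% and 21.9% of all genes were. With median-ratio scaling 43 were higher and 11 lower there, where 36.8% and 31.1% of all genes were. The direction of liver against BAT and of liver against sWAT thus differed between scalings for most members, while more members were higher than lower in sWAT against BAT under all 3. Liver against BAT kept a positive median with median-ratio scaling. Outside mitochondrial transcripts and copies, liver also held a smaller summed share than sWAT.

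Levels spread widely within the set. Rplp1, an acidic protein of the ribosomal stalk that recruits elongation factors, was the most abundant member in all 3 tissues, at 683 ± 56.8 TPM in HFD BAT, 940 ± 72.9 in HFD liver and 1813 ± 118 in HFD sWAT (n = 5). Rps15a, a small-subunit protein, was the least abundant, at 11.8 ± 1.24, 16.6 ± 1.72 and 43.6 ± 3.02 TPM. The 5 most abundant members, which included Rplp1, Rps15 and Rpl36 in each tissue, held 22.8% of the summed TPM in HFD BAT, 20.1% in HFD liver and 19.6% in HFD sWAT. The ratio of large-subunit to small-subunit sums was 1.70 ± 0.019 in HFD BAT, 1.75 ± 0.015 in HFD liver and 1.79 ± 0.024 in HFD sWAT.

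The make-up of the set differed between tissues. Here each member was compared after setting the summed member TPM equal in all libraries, so that a factor common to a library cancels. In HFD liver against HFD BAT 38 members took a larger share and 19 a smaller one, where 26.8% of all genes tested were higher and 50.5% lower on that scale. In HFD sWAT against HFD BAT 41 were higher and 17 lower, where 33.6% and 32.6% of all genes were. In HFD liver against HFD sWAT 20 were higher and 25 lower, where 30.9% and 47.8% of all genes were.

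Among the stalk proteins, Rplp2, the partner of Rplp1, showed the largest tissue difference of all members. Its share of the summed TPM was 1.53, 1.40, 1.37, 1.62 and 1.48% in the 5 HFD BAT libraries, 0.560, 0.531, 0.600, 0.529 and 0.562% in HFD liver and 1.12, 1.10, 1.08, 1.14 and 1.08% in HFD sWAT. The tissues did not overlap, and liver was lowest. The difference was -1.40 ± 0.05 (log2, SE; adjusted p = 5.01e-13) in liver against BAT and -0.98 ± 0.05 (adjusted p = 4.55e-11) in liver against sWAT. Rplp2 was also the single member lower in liver than in BAT as TPM, at -0.82 ± 0.07 (adjusted p = 1.58e-08). Rplp0, which anchors the stalk, took 2.81% ± 0.127 in HFD BAT, 2.70% ± 0.088 in HFD liver and 3.04% ± 0.103 in HFD sWAT, and Rplp1 6.69% ± 0.255, 6.13% ± 0.315 and 6.13% ± 0.122. In liver against BAT, Rplp1 was lower by a small step of -0.13 ± 0.05 (adjusted p = 0.0297), and Rplp0 did not pass at -0.06 ± 0.05 (adjusted p = 0.281). Rplp0 did pass in liver against sWAT, at -0.17 ± 0.05 (adjusted p = 0.00312 by limma), and in sWAT against BAT, at 0.12 ± 0.05 (adjusted p = 0.0392). Rplp1 passed in sWAT against BAT, at -0.12 ± 0.05 (adjusted p = 0.0376 by limma), but not in liver against sWAT (adjusted p = 0.970). In the deposited table (build GRCm39) Rplp2 is ENSMUSG00000025508.14, chromosome 7, 141027283 to 141031498, plus strand.

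Rpl10, a large-subunit protein that helps to form the peptidyl transferase centre and joins late in assembly, took 1.29, 1.36, 1.45, 1.27 and 1.32% in HFD BAT, 2.76, 2.88, 2.94, 2.79 and 2.98% in HFD liver and 1.95, 2.13, 1.83, 1.90 and 1.93% in HFD sWAT. All 3 tissues were separate, with liver highest, at 1.10 ± 0.05 above BAT (adjusted p = 8.10e-12) and 0.56 ± 0.05 above sWAT (adjusted p = 4.53e-08). On GRCm39 the table places Rpl10 (ENSMUSG00000008682.14) on chromosome X, 73314418 to 73316741, plus strand. Rpl4 was 0.64 ± 0.04 higher in liver than in BAT and 0.36 ± 0.04 higher than in sWAT. Rps18 of the small subunit, Rpl10a, Rpl5, which carries 5S ribosomal RNA into the ribosome, and Rpl35a followed at 0.50, 0.44, 0.40 and 0.39 above BAT. Among the members with a smaller share in liver than in BAT were also Rps29 at -0.66, Rps19, mutated in human Diamond-Blackfan anaemia, at -0.57, Rpl23a at -0.54 and Rpsa, the laminin receptor precursor, at -0.46. Each of the named members had an adjusted p under 0.05.

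Rps2, a small-subunit protein near the messenger RNA entry channel, separated the adipose tissues. Its share was 4.10, 3.94, 4.24, 4.00 and 3.90% in HFD BAT, 4.61, 4.68, 4.81, 4.67 and 4.47% in HFD liver and 2.53, 2.66, 2.50, 2.52 and 2.66% in HFD sWAT. sWAT was lowest and did not overlap the others, at -0.65 ± 0.04 against BAT (adjusted p = 2.20e-09), and liver stood 0.85 ± 0.04 above sWAT (adjusted p = 2.34e-11). Rps2 was also the single member whose TPM did not pass the test between liver and sWAT, at -0.09 ± 0.07 (adjusted p = 0.229). Rps2 is ENSMUSG00000044533.16, chromosome 17, 24937090 to 24940903, plus strand (GRCm39). Against BAT, sWAT gave larger shares to Rpl10 at 0.54, Rpl39 at 0.48, Rpl32 at 0.48, Rps4x at 0.45, Rpl6 at 0.42 and Rps12 at 0.41, and smaller ones to Rpsa at -0.43, Rplp2 at -0.42 and Rps29 at -0.40. Against sWAT, liver gave smaller shares to Rps12 at -0.73, Rps19 at -0.67, Rpl35 at -0.49 and Rps15a at -0.43, and larger ones to Rpl35a at 0.48 and Rpl7a at 0.41. Reads of a member and of its pseudogenes may have been divided between them by the authors' quantification. The 320 pseudogene rows named after a member held between 1.32 and 1.79% of the summed member TPM. Any pseudogenes under other symbols were not counted, so their part is unknown.

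**Figure D2:**
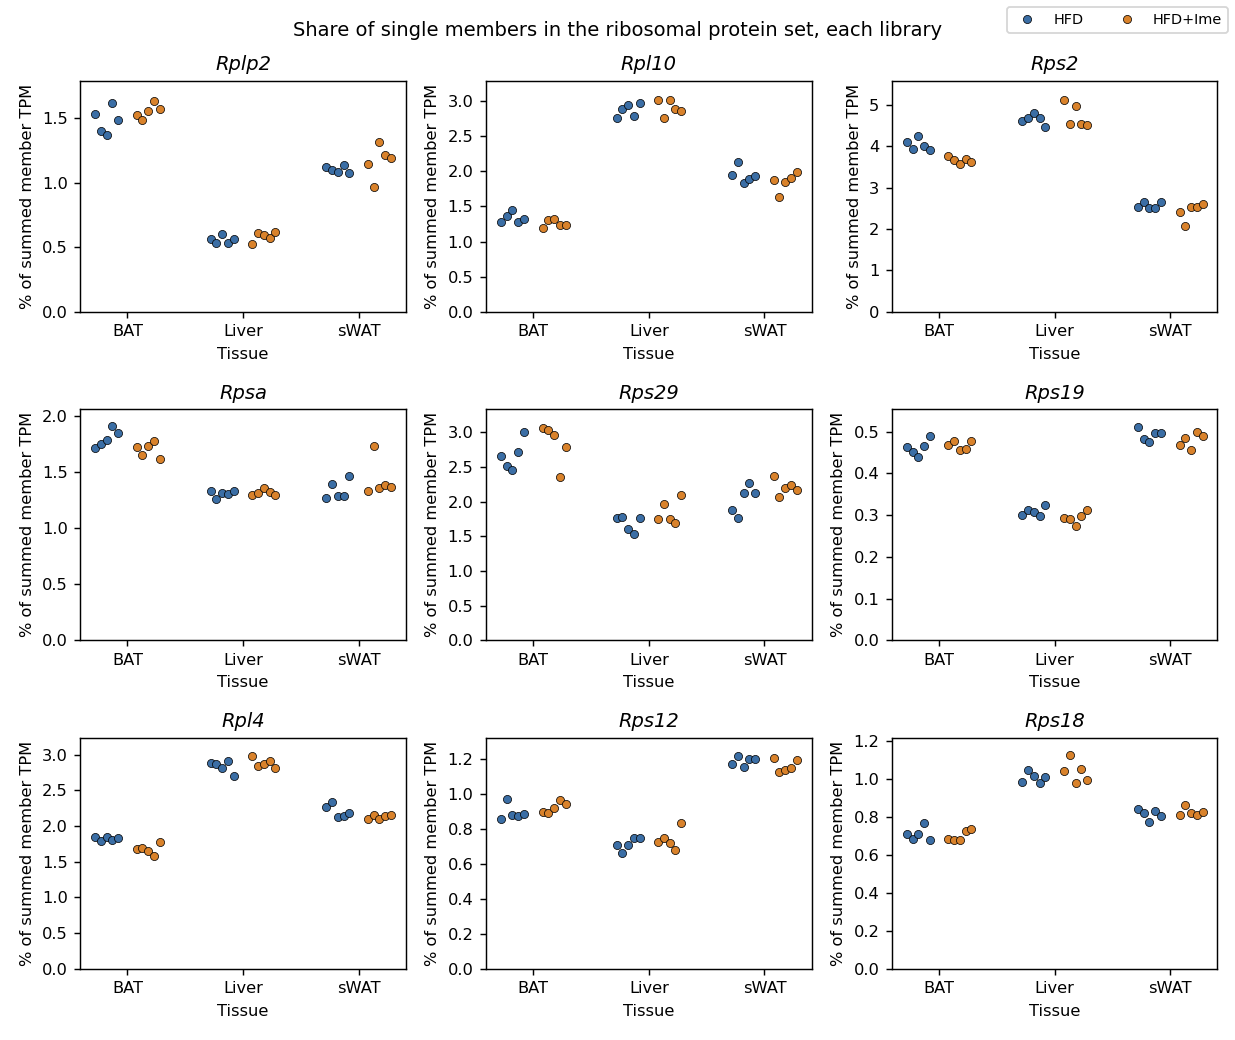
Share of 9 members in the summed TPM of the 76 (percent, axes from 0) in each library, by tissue, HFD in blue and HFD+Ime in orange. Rplp2, Rps19 and Rps12 are lowest in liver, Rpl10 and Rpl4 are highest there, and Rps2 is lowest in sWAT.

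The effect of imeglimin was tested in each tissue. In BAT, no member passed the threshold, where 0.868% of all 11402 genes did, 98 lower and 1 higher. A positive difference was found for 69 of 76 members, where 23.1% of all genes had one, and the median difference was 0.09 for the members and -0.12 for all genes (log2). Of the members, 12 had an unadjusted p under 0.05, all higher, where 1.25% of all genes were higher by that rule. The summed share was 0.970, 1.02, 1.11, 1.05 and 0.958% of TPM with HFD and 1.05, 0.988, 1.08, 1.12 and 1.16% with HFD+Ime, and the groups overlapped. Outside mitochondrial transcripts and copies it was 2.88, 2.95, 3.01, 2.95 and 2.98% with HFD and 3.27, 3.03, 3.45, 3.60 and 3.67% with HFD+Ime, and the groups did not overlap. Mitochondrial transcripts and copies together held between 63.0 and 67.9% with HFD and between 67.4 and 69.0% with HFD+Ime. The mitochondrially encoded genes alone held between 37.1 and 40.8% with HFD and between 38.6 and 38.97% with HFD+Ime, within the HFD range. The near-copies held at most 27.6% with HFD and at least 28.5% with HFD+Ime, without overlap. The ribosomal share with only the mitochondrially encoded genes left out was not computed. Its separation is therefore shown only with both kinds of row left out. The 5 macrophage markers summed to between 50.8 and 159 TPM with HFD and between 45.1 and 77.7 TPM with HFD+Ime, and the 6 hepatocyte markers to between 13.7 and 822 TPM and between 24.1 and 1384 TPM. The part of these cells in the BAT values was not tested.

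The members with the largest differences in BAT were Rpl27a at 0.25 ± 0.08 (SE; adjusted p = 0.0950), Rps27 at 0.24 ± 0.07 (adjusted p = 0.0864), Rpl35a at 0.22 ± 0.07, Rps28 at 0.21 ± 0.05 (adjusted p = 0.0710, the lowest of any member) and Rpl13a at 0.18 ± 0.06. Rps28 stood at 49.4, 46.8, 48.9, 49.2 and 49.3 TPM with HFD and at 55.4, 52.4, 56.7, 55.4 and 62.1 TPM with HFD+Ime, all HFD+Ime libraries being higher. Rps27, a zinc-finger protein of the small subunit, stood at 106, 118, 125.7, 122 and 115 TPM with HFD and at 137, 130, 145, 126.1 and 154 TPM with HFD+Ime, and the groups did not overlap either. Rps27 and Rps28 were the 2 members without overlap, where 0.228% of all genes were higher without overlap. Rpl27a stood at 73.1, 66.7, 71.6, 72.2 and 70.0 TPM with HFD and at 76.8, 72.2, 89.1, 93.7 and 91.6 TPM with HFD+Ime, overlapping by its lowest HFD+Ime library. At the other end stood Rps2 at -0.06, Rpl4 at -0.04 and Rpl15, Rpl10 and Rpl12 between -0.01 and 0 (log2), none past the threshold and each positive under both other scalings. On GRCm39, Rps27 (ENSMUSG00000090733.7) lies on chromosome 3, 90119829 to 90120958, minus strand, Rps28 (ENSMUSG00000067288.14) on chromosome 17, 34038001 to 34043536, minus strand, and Rpl27a (ENSMUSG00000046364.15) on chromosome 7, 109118354 to 109121574, plus strand.

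The size of this difference depended on the scaling. With median-ratio scaling all 76 members were positive, where 51.4% of all genes were, and 71 were higher at an unadjusted p under 0.05, where 7.92% of all genes were. The median was 0.23 for the members and 0.01 for all genes. Without mitochondrial transcripts and copies the numbers were 76 and 69, where 45.7% and 6.03% of all genes met the same rules, with medians of 0.21 and -0.02. No member passed the adjusted threshold under either (lowest adjusted p = 0.0917 and 0.0806 by limma). Members covaried between libraries (median correlation 0.73 over pairs in BAT), so counts of members, here and in the other comparisons, are not separate observations. Without BAT HFD+Ime replicate 88, 3 members passed, Rpl27a at 0.30 (adjusted p = 0.0362 by limma), Rps28 at 0.23 (adjusted p = 0.0390) and Rpl13a at 0.22 (adjusted p = 0.0392), where 0.115% of 11333 genes were higher. Without replicates 79 and 94, which held the most skeletal muscle transcripts, a setting chosen after seeing the data, no member passed (lowest adjusted p = 0.210 by limma), 71 were positive, where 27% of all genes were, and the median was 0.09. Within the set, no member's share passed the threshold, where 6.49% of all genes did, all of them lower. The lowest adjusted p was 0.0846, for Rps2, whose share was between 3.90 and 4.24% with HFD and between 3.56 and 3.76% with HFD+Ime. Rps2 and Rpl4 were the 2 members with a lower share without overlap, where 9.16% of all genes were, and Rpl31 was the 1 member with a higher share without overlap, at 0.09 ± 0.05 (adjusted p = 0.199), where 0.0263% of all genes were. Across the 76 members the BAT difference had a Spearman rho of -0.47 with coding length (GENCODE vM21), a description across genes that share the same libraries.

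In liver no member passed, where 0% of 11516 genes did (484 at an unadjusted p under 0.05), and no member had an unadjusted p under 0.05 (lowest adjusted p = 0.984 by limma). A positive difference was found for 19 of 76 members, where 46.4% of all genes had one, and the median difference was -0.02. The summed share was 1.57, 1.49, 1.63, 1.505 and 1.48% with HFD and 1.46, 1.61, 1.40, 1.43 and 1.67% with HFD+Ime, and the groups overlapped. The ends of the range were Rps29 at 0.11 ± 0.10 and Rps15a at 0.06 ± 0.08 on the higher side and Rpl18 at -0.11 ± 0.07 and Rpl36a at -0.11 ± 0.10 on the lower. Rplp2, low in liver on HFD, stood at 87.8, 79.1, 97.7, 79.6 and 83.03 TPM with HFD and at 76.5, 97.7, 83.5, 81.7 and 103 TPM with HFD+Ime. Within the set no member's share passed, where 0% of all genes did, and none had an unadjusted p under 0.05.

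In sWAT no member passed, where 0.0146% of 13736 genes did (lowest adjusted p = 0.465 by limma), and none had an unadjusted p under 0.05. The difference was positive for all 76 members, where it was for 56.4% of all genes, with a median of 0.21, led by Rps27 at 0.50 ± 0.29, Rpl13a at 0.35 ± 0.28 and Rps29 at 0.33 ± 0.18. Without library 88, 33 members were positive, where 50.7% of all genes were, the median was -0.00, and 2 members had an unadjusted p under 0.05, Rps27 at 0.17 ± 0.07 (adjusted p = 0.324) and Rplp2 at 0.15 ± 0.06, where 6.75% of all genes were higher by that rule. No member passed without it either, where 0.0295% of 13562 genes did. The summed share was 3.19, 5.96, 2.85, 2.79 and 3.07% in the HFD+Ime libraries, that of library 88 being the 5.96%, and the other 4 lay within or just above the HFD range. Rps27 stood at 344, 352, 325, 329 and 361 TPM with HFD and at 389, 364, 363 and 422 TPM in the 4 other HFD+Ime libraries, and was the single member higher without overlap, where 2.76% of all genes were. Rpl27, at 272.5 to 319.5 TPM with HFD and 256.2 to 272.3 TPM in those 4 libraries, was the single member lower without overlap, where 1.92% were. Within the set no member's share passed, where 0% of all genes did with library 88 and 0.00737% without it.

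**Figure D3:**
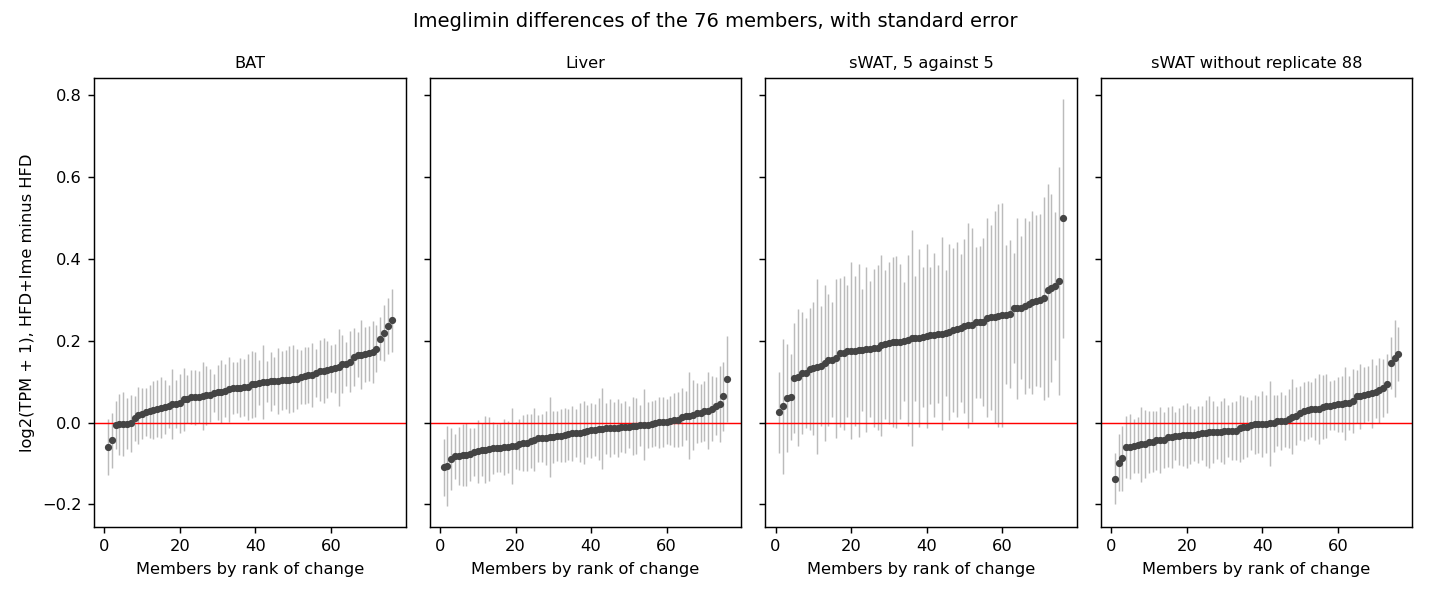
Difference between HFD+Ime and HFD on the log2(TPM + 1) scale for the 76 members, sorted by size within each panel, with the standard error of the fit. The median lies at 0.09 in BAT, -0.02 in liver and 0.21 in sWAT, and at -0.00 in sWAT without library 88, where the standard errors also shrink.

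Library 88 of sWAT HFD+Ime exceeded all other 9 sWAT libraries for all 76 members, where it did so for 35.3% of 13562 genes. The median ratio to the median of the other 9 was 2.06 over the members and 1.04 over those genes. Rps27 had the highest ratio, at 1213 TPM against 361, a ratio of 3.36, followed by Rpl13a at 3.02, Rps15a at 2.87 and Rps24 at 2.80, and Rpl41, the member with the shortest coding sequence, the lowest at 1.20. Small-subunit members had a median ratio of 2.25 (range 1.61 to 3.36, 30 members) and large-subunit members one of 1.91 (1.20 to 3.02, 46 members), and the large-to-small ratio of this library was 1.54 against 1.75 to 1.82 in the other 9. The 7 B cell and lymph node markers, all in the table, summed to 3311 TPM there and to between 554 and 2028 TPM in the other 9, of which Ighm alone made up nearly all, and the other 6 were each at most 2.89 TPM in those libraries. The 5 T cell markers summed to 411 TPM against at most 14.9, the 6 hepatocyte markers to 13109 against at most 1047, and the 5 white adipocyte markers to 10992 against at least 20653. Their part in the ribosomal protein values was not tested.

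**Figure D4:**
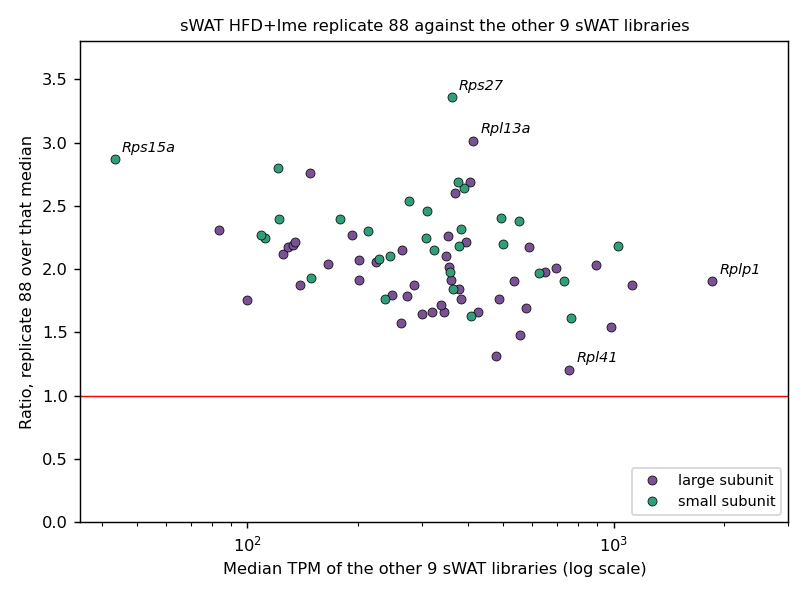
Ratio of each member in sWAT HFD+Ime replicate 88 to its median in the other 9 sWAT libraries, against that median in TPM (log scale), large subunit in purple and small subunit in green. All 76 ratios lie above 1, from 1.20 for Rpl41 to 3.36 for Rps27.

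Whether the response to imeglimin differed between tissues was tested as an interaction over all 30 libraries. No member passed in BAT against liver, where 0.167% of 14953 genes did, in BAT against sWAT, where 2.05% did, or in sWAT against liver, where 0.127% did. No member had an unadjusted p under 0.05 in any of the 3 by limma. Library 88 of sWAT is among the 30, so it also enters the standard errors of BAT against liver. For Rpl13a that standard error was 0.26, against 0.06 in BAT and 0.07 in liver fitted alone. In BAT against liver no member passed without any 1 library either. Unadjusted counts for that response without library 88 are not given. The median difference of the response was 0.11 in BAT against liver, with 74 members positive where 33.9% of all genes were, led by Rpl13a at 0.26 ± 0.26. In BAT against sWAT it was -0.13, with 5 members positive where 28% of all genes were, and without library 88 it became 0.09 with 70 positive, where 34% of all genes were. Without library 88 and with median-ratio scaling together, a setting chosen after seeing the data, 1 member, Rpl27 (adjusted p = 0.0391), passed in BAT against sWAT, where 0.29% of all genes were higher. In that setting 56 members were higher at an unadjusted p under 0.05, where 7.72% of all genes were, and the median was 0.25 for the members and 0.02 for all genes. In sWAT against liver it was 0.24 with 76 positive, where 58.8% of all genes were, and 0.03 with 49 positive without library 88, where 53.3% of all genes were. Without library 88 no member passed in BAT against sWAT, where 3.51% of all genes did, or in sWAT against liver, where 0.236% did (lowest adjusted p = 0.194 and 0.7099 by limma). These comparisons share their libraries with the effects in single tissues.

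The members covaried between libraries. After subtracting group means, the median Pearson correlation over the 2850 pairs of members was 0.73 in BAT and 0.74 in liver (10 libraries each), and 0.98 in sWAT, or 0.77 there without library 88 (9 libraries). These values describe libraries that share a total and are not tests. Rps29 correlated least with the rest in BAT, at 0.02, Rpl18 least in liver, at 0.37, and Rpl38 least in sWAT without library 88, at 0.27. Rps6, the substrate of S6 kinase, stood at 147.1, 158.5, 188, 160 and 161 TPM in HFD BAT and at 166, 160, 175, 181 and 191 TPM in HFD+Ime BAT, with overlap, and its difference was 0.10 ± 0.07. Rps18, Rpl13a and Rplp0, which laboratories often use as reference genes, differed in BAT by 0.07 ± 0.08, 0.18 ± 0.06 and 0.03 ± 0.07, and between HFD tissues their TPM differed by 1.09, 0.89 and 0.53 in liver against BAT. That difference took the opposite sign for each of these 3 without mitochondrial transcripts and copies, at -0.10, -0.30 and -0.66.

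Genes around the ribosome were described by lists. With imeglimin in BAT, 23.1% of all genes were positive, with a median of -0.12, and 0.868% passed. In sWAT 0.0146% of all genes passed, or 0.0295% without library 88, and in liver 0% did. Of 14 translation factors and related genes with TOP messenger RNAs, none passed with imeglimin in BAT, where 6 were positive with a median of -0.01, in liver or in sWAT. In sWAT their median was 0.16, and 0.00 without library 88, with none past the threshold there either. Of 32 ribosome assembly genes, none passed in any tissue, with or without library 88 in sWAT, and in BAT 5 were positive with a median of -0.13, and in sWAT the median was 0.10, or 0.05 without library 88. A list of ribosomal protein paralogs and fusions also held Rack1 and Rps3a1. Of its 12 genes tested in BAT, none passed and 8 were positive with a median of 0.05. Of 9 snoRNA host genes none passed with a median of 0.00. Of 15 genes of mTORC1 and LARP1 control, 1 passed in BAT, Deptor, an inhibitor of mTOR, which fell by 1.02 ± 0.13 (log2; adjusted p = 0.0291). Deptor stood at 67.4, 81.7, 85.3, 95.4 and 67.8 TPM with HFD and at 46.0, 45.7, 36.3, 32.4 and 34.0 TPM with HFD+Ime, without overlap, but it did not pass with no filter (adjusted p = 0.0591), without any 1 of HFD replicates 76, 79 and 80 or HFD+Ime replicates 89, 91 and 94, or without 79 and 94 together (adjusted p = 0.206). In liver, and in sWAT with or without library 88, none of that list passed. That list had a median of -0.13 in BAT, where the median of all genes was -0.12. Between HFD tissues, 12 of the 14 TOP factors were higher and 0 lower in liver than in BAT, with a median of 0.68, that of the ribosomal proteins being 0.68, and of the 32 assembly genes 18 were higher and 3 lower, with a median of 0.22, where 44.4% of all genes were higher and 30.2% lower. These directions turned without mitochondrial transcripts and copies, with 1 of the TOP factors higher and 12 lower (median -0.47) and 0 of the assembly genes higher and 29 lower (median -0.88), where 17.2% of all genes were higher and 70.1% lower.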

How the data were processed

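Libraries were strand-specific and made after poly(A) selection, per the labels' protocols. The authors deposited TPM values for 30 libraries. STAR, RSEM and GRCm39 are named in the submitters' processing notes, with no versions. TPM sums to the same total in every library, so depth is unknown and no interval from counts is given. All 30 sample columns were used. The design text names fewer animals per group than the labels, which were followed.

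The members and lists were chosen with earlier results of these data known. Genes reaching 1 TPM in 5 or more libraries of a fit were tested on log2(TPM + 1) with limma 3.58.1 in R 4.3.3 (moderated test with a trend), adjusted by Benjamini-Hochberg over all genes tested, with a threshold of 0.05. Fold changes on this scale understate the change of low genes. Each imeglimin effect used the 10 libraries of its tissue, the responses all 30 and the tissue comparisons the 15 HFD libraries. Within the ribosomal protein set, libraries were scaled to equal summed member TPM. Nuclear near-copies of the 37 mitochondrial genes (16 rows, at least 90% identity over 80% of the length) were found with BLAST+ 2.17.0. The text names, per comparison, up to 10 members past the threshold in each direction or else the 5 of largest change, with a fixed group of stalk, reference and most abundant members. Some genes that this rule names are not reported here. On simulated data with 100 genes shifted by 1.0 (log2), 95 were recovered in BAT and liver and 82 in sWAT, and of 100 shifted by 0.5, 67, 64 and 31. The shifted genes were drawn from the better expressed ones, and noise was drawn separately for each gene. The members covary between libraries, so these rates do not carry over to the members as a set. Alternatives were another pseudocount of 0.1, no filter, a constant prior variance, median-ratio scaling and leaving out mitochondrial transcripts and near-copies. Others were adding the pseudogenes named after a member to their parent, a replicate block and leaving out each library.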

Additional observations from a re-analysis of the deposited data

Results flagged for a closer look

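The values below were set off from the other 4 libraries of their group by a gap larger than Dixon's 95% critical value of 0.71, which chance exceeds in about 1 in 20 groups. All belong to sWAT HFD+Ime replicate 88. The ribosomal proteins held 5.96% of its TPM and 7.33% outside mitochondrial transcripts and copies, and its ratio of large to small subunit sums was 1.54. Rplp1 stood at 3548 TPM, Rplp0 at 1821 TPM, Rplp2 at 574 TPM and Rpsa at 1035 TPM. Rps6 stood at 1183 TPM, Rps18 at 515 TPM and Rpl13a at 1248 TPM. Over all 76 members, 71 were set off in this group, against 1 to 4 in each of the other 5 groups. The B cell, T cell and hepatocyte markers of this library are given with the results, and their part in these values was not tested.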

How the results depend on the processing

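Without any 1 library, the counts of members past the threshold stayed within 1.5 times those reported, except that up to 3 members passed higher in BAT and up to 1 lower within the set there, both without BAT HFD+Ime replicate 88. Another pseudocount, no filter, a constant prior variance and added pseudogenes moved no count by more than that. The values below are log2 differences or numbers of members, and the cause of each change was not tested. Where the results give no share of all genes under a setting, a number of members shows only the change from the reported setting. With median-ratio scaling, in the imeglimin effect in BAT, the median was 0.235 and the sign was opposite for Rps2 at 0.0858, Rpl4 at 0.102, Rpl15 at 0.138, Rpl10 at 0.140, Rpl12 at 0.139 and Rpsa at 0.144. Without mitochondrial transcripts and copies, in the imeglimin effect in BAT, the median was 0.211 and the sign was opposite for Rps2 at 0.0606, Rpl4 at 0.0774, Rpl15 at 0.114, Rpl10 at 0.116, Rpl12 at 0.116 and Rpsa at 0.119. With median-ratio scaling, in the imeglimin effect in liver, the sign was opposite for Rpl36 at 0.00437. With pseudogenes added to their parent, in the imeglimin effect in liver, the sign was opposite for Rps2 at -0.000695. With median-ratio scaling, in the response of BAT against liver, the median was 0.246 and the sign was opposite for Rps2 at 0.0712 and Rpl4 at 0.0851. Without mitochondrial transcripts and copies, in the response of BAT against liver, the median was 0.235 and the sign was opposite for Rps2 at 0.0594 and Rpl4 at 0.0734. Without sWAT library 88 and with median-ratio scaling, a setting chosen after seeing the data, in the response of BAT against sWAT, the members past the threshold and higher numbered 1. Without mitochondrial transcripts and copies, in HFD liver against BAT, the members past the threshold and higher numbered 1, the members past the threshold and lower numbered 73, the median was -0.498 and the sign was opposite for Rps18 at -0.0970, Rpl10a at -0.156, Rpl5 at -0.200, Rpl35a at -0.205, Rpl36a at -0.212, Rpl17 at -0.246, Rpl7 at -0.285, Rps7 at -0.287, Rplp0 at -0.661, Rplp1 at -0.731, Rpsa at -1.06, Rps6 at -0.311, Rpl13a at -0.296, Rpl23a at -1.14, Rpl36 at -0.995, Rps15 at -0.787 and Rps2 at -0.400. With median-ratio scaling, in HFD liver against BAT, the members past the threshold and lower numbered 5, the median was 0.436 and the sign was opposite for Rpsa at -0.124, Rpl23a at -0.201 and Rpl36 at -0.0555. With median-ratio scaling, in HFD sWAT against BAT, the members past the threshold and higher numbered 43, the members past the threshold and lower numbered 11, the median was 0.175 and the sign was opposite for Rplp1 at -0.0696, Rplp2 at -0.366, Rpsa at -0.372, Rpl23a at -0.179, Rpl36 at -0.237, Rps15 at -0.0249 and Rps2 at -0.592. Without mitochondrial transcripts and copies, in HFD sWAT against BAT, the members past the threshold and lower numbered 1, the median was 0.451 and the sign was opposite for Rplp2 at -0.0917, Rpsa at -0.0973 and Rps2 at -0.317. With median-ratio scaling, in HFD liver against sWAT, the members past the threshold and higher numbered 52, the members past the threshold and lower numbered 4, the median was 0.261 and the sign was opposite for Rplp0 at 0.108, Rplp1 at 0.278, Rpsa at 0.248, Rps6 at 0.591, Rpl13a at 0.435, Rps18 at 0.581, Rpl36 at 0.181, Rps15 at 0.177 and Rps2 at 1.13. Differences that changed sign when 1 library was left out, and counts that moved, are given as ranges. In the imeglimin effect in BAT the range was for members past the threshold and higher from 0 to 3, Rpl15 from -0.0326 to 0.0260, Rpl10 from -0.0365 to 0.0549, Rpl12 from -0.0475 to 0.0393, Rplp0 from -0.00872 to 0.0854, Rplp1 from -0.00442 to 0.0875, Rpsa from -0.0366 to 0.0397 and Rpl23a from -0.0276 to 0.0594. In the imeglimin effect in liver the range was Rplp2 from -0.0112 to 0.0952, Rps13 from -0.00153 to 0.0740, Rplp1 from -0.00566 to 0.0699, Rplp0 from -0.0491 to 0.0204, Rpsa from -0.0407 to 0.0114, Rps6 from -0.0512 to 0.0243, Rps18 from -0.0290 to 0.0699, Rpl36 from -0.0781 to 0.0296 and Rps2 from -0.0257 to 0.0361. In the imeglimin effect in sWAT the range was Rplp0 from -0.0313 to 0.264, Rpl36 from -0.00562 to 0.175 and Rps2 from -0.0222 to 0.177. In the response of BAT against sWAT the range was Rpl36 from -0.00950 to 0.171, Rpl24 from -0.0135 to 0.114, Rpl29 from -0.0534 to 0.127, Rps24 from -0.378 to 0.0168, Rpl12 from -0.378 to 0.0392, Rps27 from -0.366 to 0.0678 and Rps4x from -0.319 to 0.00471. In HFD sWAT against BAT within the set the range was Rps6 from -0.0364 to 0.00309. In HFD liver against sWAT within the set the range was Rplp1 from -0.0230 to 0.0244 and Rpsa from -0.0519 to 0.00128. In the imeglimin effect in BAT within the set the range was for members past the threshold and lower from 0 to 1. The replicate numbers recur over tissues, and the labels used here do not say whether a number marks 1 animal. Of 30 comparisons of a number between a pair of tissues, 16 had a correlation over 0.1 (median 0.101, range -0.349 to 0.350), and in 15 the same number was the best match among the 5 of its group. A match drawn at random from those 5 would be the same number 1 time in 5. The block was therefore kept as an alternative, and whether the numbers pair the libraries was not settled. The main fits treated all libraries as independent. With the replicate block, 70 members were higher and 1 lower in HFD liver against BAT, as without it. Within the set 38 were higher, as without it, and 18 lower, with no response past the threshold. Shares of all genes under the block are not given, so these counts show only how far the block moved them. Of the values of single named genes, 20 lost and 2 gained a call over the alternatives other than leaving out 1 library, 57 changed sign and 1331 kept direction and call (values counted once per comparison and alternative). Without depth, a low value cannot be given a counting error.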
